A study of Mus musculus with 4 samples.

Results

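The Notch receptors Notch1, Notch2 and Notch3, the ligands Dll1, Dll3, Dll4, Jag1 and Jag2, and the fringe genes Lfng and Mfng were examined for SOX3 binding in neural progenitor (NP) cells. These 10 genes, chosen by name out of 22367 annotated protein-coding genes, were each taken with 50 kb to either side of the gene body. All peaks of SOX3 that overlapped these windows were collected, 41 from replicate 1, 17 from replicate 2 and 47 from replicate 3. Peaks that overlapped by at least 1 bp were merged, which gave 67 regions of 51271 in the genome. A region with a peak of every replicate is called a site here, and the windows held 15 of the 5358 sites in the genome. The study also kept peaks present in all 3 replicates but reported a larger number of common sites, so the 5358 are not its published set.

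The NP cells were derived from R1 cells, an established mouse embryonic stem cell line, by culture for 4 days in N2B27, a serum-free neural induction medium. Chromatin was immunoprecipitated with a goat antibody against human SOX3 in 3 independent samples, labelled as biological replicates, and 1 input sample without antibody served as background when the peaks were called. All samples share the line, the medium and the time, so there is no contrast between conditions, and 1 cell line limits the data as a model of the embryonic brain. No expression was measured, so neither the identity of the cells nor the activity of the Notch pathway could be checked from these lists.

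Notch signalling passes between neighbouring cells. Delta-like and Jagged ligands on one cell bind a Notch receptor on the next, the receptor is cleaved, and its intracellular part enters the nucleus and joins RBPJ to switch on Hes and Hey repressor genes. In the developing brain this lateral inhibition keeps some cells as progenitors while their neighbours become neurons. The fringe proteins are glycosyltransferases that modify the receptor in the Golgi and change which ligands it responds to. SOX3 is a SOXB1 protein with an HMG box that binds short A and T rich words of DNA, often next to a partner such as a POU protein.

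The lists differ in length, with 18816, 8096 and 40543 peaks in replicates 1, 2 and 3. The score of a peak is its MACS p-value on a negative log10 scale, multiplied by 10, with a minimum of 50. Since scores depend on the depth of a library, which the lists do not give, the percentile or rank of a score within its list is given with it. The lists of replicates 2 and 3 share many peak boundaries. Around the 10 genes, 7 of 17 overlapping pairs from these replicates (41.2%) began at the same base, against 0 of 15 from replicates 1 and 2 and 0 of 21 from replicates 1 and 3, and over the genome these shares were 34.5%, 0.922% and 1.63%. Leaving out replicate 2 raised the number of regions shared by all remaining lists around the 10 genes from 15 to 20, leaving out replicate 1 raised it to 17, and leaving out replicate 3 left it at 15. The labels do not say whether replicates 2 and 3 were handled together, so how far their lists are independent was not tested. In a culture measured in bulk, binding in fewer cells and weaker binding per cell cannot be told apart.

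The sequences that follow show where the SOX core and the POU octamer lie in the highest ranking site of 6 genes and in 2 more sites. For each gene, the site shown is the one whose lowest percentile over the replicates was highest, and the Notch1 promoter site and the Jag1 intron 9 site were added after their values were seen because they match the degenerate word called SOX/POU here. The sites of Notch2 and Dll4 chosen in the same way hold none of these words and are not shown. Each line gives the 300 bp at the middle of a site, or the whole of a shorter site, on the plus strand of mm9. Capitals mark the SOX core, which is ACAA followed by A or T and then by A or G, and the POU octamer ATGCAAAT or ATGCTAAT, on either strand.
Dll1 upstream site (chr17:15517560-15517859): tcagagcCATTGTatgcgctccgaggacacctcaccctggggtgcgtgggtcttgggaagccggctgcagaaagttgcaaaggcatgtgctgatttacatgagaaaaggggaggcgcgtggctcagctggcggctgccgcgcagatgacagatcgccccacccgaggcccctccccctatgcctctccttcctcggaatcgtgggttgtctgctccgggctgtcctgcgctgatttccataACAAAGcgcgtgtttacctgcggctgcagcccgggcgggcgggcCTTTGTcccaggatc
Lfng upstream site (chr5:141060013-141060312): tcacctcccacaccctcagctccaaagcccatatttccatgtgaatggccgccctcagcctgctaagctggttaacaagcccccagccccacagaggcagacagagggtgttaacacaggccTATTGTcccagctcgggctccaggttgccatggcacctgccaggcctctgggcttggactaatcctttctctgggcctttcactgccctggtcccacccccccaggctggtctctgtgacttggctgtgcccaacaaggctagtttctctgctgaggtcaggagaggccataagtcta
Notch1 intronic site (chr2:26356123-26356422): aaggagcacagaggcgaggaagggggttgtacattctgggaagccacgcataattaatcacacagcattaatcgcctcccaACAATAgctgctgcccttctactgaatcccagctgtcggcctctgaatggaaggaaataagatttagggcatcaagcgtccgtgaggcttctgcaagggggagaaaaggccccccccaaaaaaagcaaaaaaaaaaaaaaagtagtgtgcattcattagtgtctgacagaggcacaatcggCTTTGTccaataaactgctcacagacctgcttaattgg
Notch1 promoter site (chr2:26359482-26359781): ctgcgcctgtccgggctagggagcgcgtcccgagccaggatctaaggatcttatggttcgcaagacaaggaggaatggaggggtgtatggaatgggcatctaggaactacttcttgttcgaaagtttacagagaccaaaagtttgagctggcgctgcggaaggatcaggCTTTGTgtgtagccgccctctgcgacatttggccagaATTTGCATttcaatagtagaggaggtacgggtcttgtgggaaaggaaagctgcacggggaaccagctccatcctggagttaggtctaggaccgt
Notch3 intronic site (chr17:32302642-32302941): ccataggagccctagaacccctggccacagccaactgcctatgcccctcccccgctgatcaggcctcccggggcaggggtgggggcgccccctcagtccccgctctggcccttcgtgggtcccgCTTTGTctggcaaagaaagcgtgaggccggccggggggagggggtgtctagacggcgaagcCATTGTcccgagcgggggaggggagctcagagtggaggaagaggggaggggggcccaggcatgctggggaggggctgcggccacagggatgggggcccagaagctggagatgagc
Jag1 intron 5 site (chr2:136924089-136924351): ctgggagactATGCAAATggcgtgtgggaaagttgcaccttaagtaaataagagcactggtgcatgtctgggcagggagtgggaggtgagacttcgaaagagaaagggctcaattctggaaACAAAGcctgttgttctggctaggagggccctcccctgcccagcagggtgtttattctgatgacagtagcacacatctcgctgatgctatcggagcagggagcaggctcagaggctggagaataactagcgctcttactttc
Jag1 intron 9 site (chr2:136918224-136918477): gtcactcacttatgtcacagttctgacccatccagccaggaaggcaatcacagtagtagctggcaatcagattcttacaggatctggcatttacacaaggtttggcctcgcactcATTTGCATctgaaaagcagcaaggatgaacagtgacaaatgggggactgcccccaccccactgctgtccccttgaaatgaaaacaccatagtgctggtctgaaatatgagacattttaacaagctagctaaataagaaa
Mfng upstream site (chr15:78609032-78609331): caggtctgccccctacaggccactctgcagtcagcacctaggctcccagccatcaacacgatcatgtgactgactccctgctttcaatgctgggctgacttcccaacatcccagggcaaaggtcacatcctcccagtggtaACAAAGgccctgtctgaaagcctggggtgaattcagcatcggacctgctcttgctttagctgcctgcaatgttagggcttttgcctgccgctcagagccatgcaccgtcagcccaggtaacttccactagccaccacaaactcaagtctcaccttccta

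Of the 10 genes, 8 had at least 1 site in the gene body plus 50 kb, against 28.8% of all protein-coding genes. Sites were found around all 3 receptors, around 3 of the 5 ligands (Dll1, Dll4 and Jag1) and around both fringes, whereas Dll3 and Jag2 had none. Jag1 and Lfng had 3 sites each, Notch1, Dll1 and Mfng had 2 each, and Notch2, Notch3 and Dll4 had 1 each. At least 2 sites were present for 5 of the 10 genes and for 8.51% of protein-coding genes, and at least 3 sites for 2 of the 10 genes and for 3.20% of protein-coding genes. The median was 1.5 sites per gene over the 10 genes and 0 over all protein-coding genes. The windows were of similar length, with a median of 119 kb for the 10 genes and 115 kb for all protein-coding genes. No test was made, since the design has no contrast and the genes were chosen with results of these data known.

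**Figure D1:**
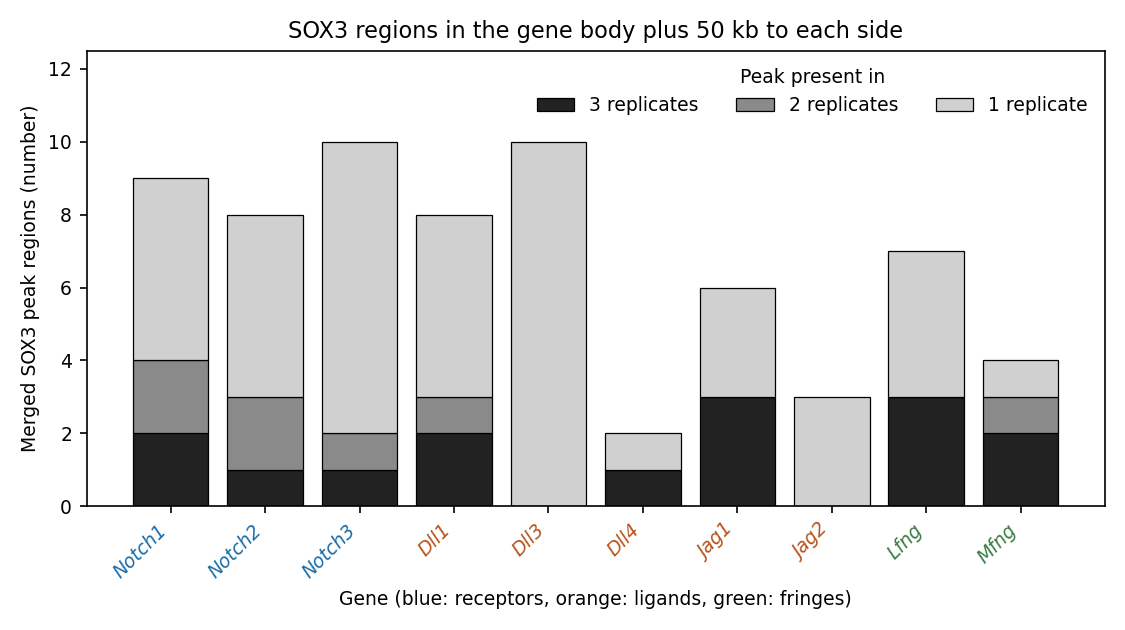
Number of merged SOX3 peak regions (vertical axis) in the gene body plus 50 kb to each side of the 10 genes (horizontal axis), with shades for regions that had a peak in 3, 2 or 1 replicates. Jag1 and Lfng have 3 regions with a peak in every replicate, and Dll3 has 10 regions, each of them in a single replicate.

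Taken as a class, the fringes had the densest sites, from 2 genes. They had 5 sites in 225.8 kb of window, or 2.21 per 100 kb, against 6 sites in 586.4 kb (1.02 per 100 kb) for the ligands and 4 sites in 541.7 kb (0.738 per 100 kb) for the receptors. Over all protein-coding genes, with overlapping windows counted for each gene, the density was 0.317 per 100 kb. The long body of Notch2 (136830 bp) makes up much of the receptor windows, and the classes hold 2 to 5 genes each. The order of ligands and receptors was not stable. Of 9 alternatives on the same windows, ligands were denser in 5 and receptors in 4, namely with a p-value of 1e-10 (0.341 per 100 kb for ligands and 0.554 for receptors), with equal numbers of peaks (0.512 and 0.738), without replicate 1 (1.02 and 1.11) and without replicate 2 (1.19 and 1.29). Fringes had the highest density in each of the 9, but not gene by gene. Mfng, with 1.70 sites per 100 kb, lay below the ligands Jag1 (2.22) and Dll1 (1.83), Lfng had 2.77, and with a p-value of 1e-10 Mfng had no site, so that both remaining fringe sites were those of Lfng. Rfng, the fringe outside the 10 genes, had 1 site in its window, nearest to Fasn. Within the gene bodies, sites were found in 3 of 3 receptors, 1 of 5 ligands and 2 of 2 fringes, against 8.83% of protein-coding genes. These counts were not adjusted for the length of the body, and a longer body has more room for a site. The bodies sum to 242 kb for the receptors, 86.4 kb for the ligands and 25.8 kb for the fringes. With the flanks, the median window was 159 kb for receptors, 111 kb for ligands, 113 kb for fringes and 115 kb for all protein-coding genes. The peaks of single lists were also denser around the 10 genes than over all protein-coding genes, at 3.03, 1.26 and 3.47 peaks per 100 kb in replicates 1, 2 and 3 beside 1.22, 0.467 and 2.06. Every one of the 10 genes had a peak of replicate 1 (67.7% of protein-coding genes), 8 had one of replicate 2 (38.3%) and 9 had one of replicate 3 (84.6%).

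**Figure D2:**
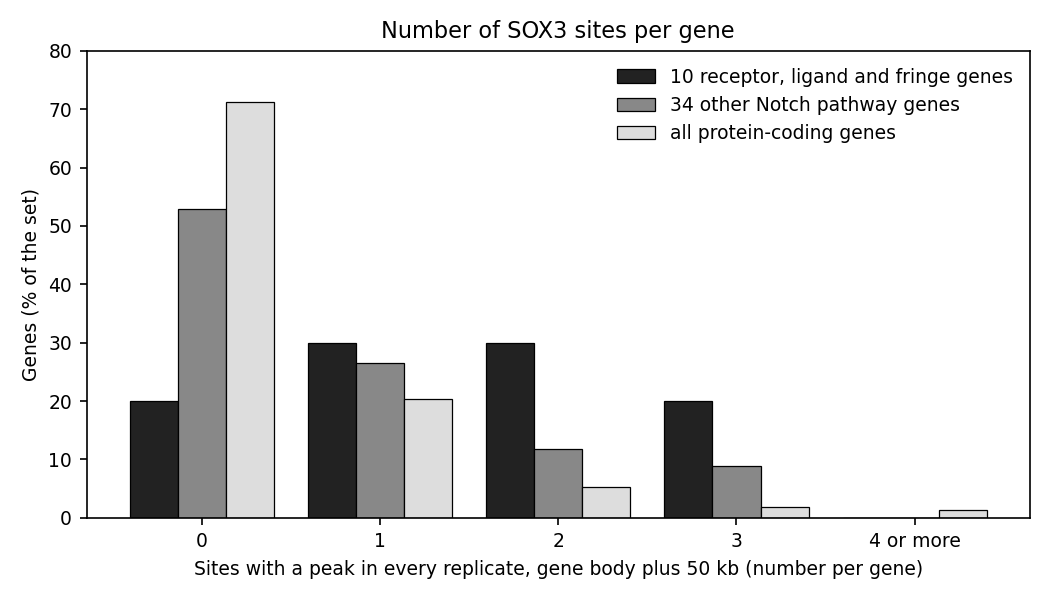
Share of genes in percent (vertical axis) with 0, 1, 2, 3 or 4 or more sites in the gene body plus 50 kb (horizontal axis), for the 10 receptor, ligand and fringe genes, 34 other Notch pathway genes and all protein-coding genes. Genes without a site make up 20% of the 10 genes, 52.9% of the other pathway genes and 71.2% of all protein-coding genes.

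The number of genes with a site depended on the strength required of a peak. When each peak had to reach a p-value of 1e-10, 7 sites remained around 4 of the 10 genes (Notch1, Notch2, Dll1 and Lfng), and the share of protein-coding genes with a site was 15.2%.

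Among the receptor sites, the intronic site of Notch1 ranked highest in replicate 1 and the site of Notch2 in replicates 2 and 3. Notch1 (ENSMUSG00000026923, chromosome 2 from 26313423 to 26372183, minus strand) encodes the receptor best known for keeping neural progenitors undifferentiated. Its intronic site, in intron 2 of the main transcript at chr2:26355968-26356576, had scores of 570, 223 and 350 in replicates 1, 2 and 3, at percentiles 97.2, 87.7 and 97.0. All replicates placed this peak in the upper part of their list. Its middle lay 3070 bp from the nearest annotated protein-coding transcript start. The sequence shown above holds AACAAT at chr2:26356203-26356208 and, on the minus strand, GACAAA at chr2:26356386-26356391.

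The promoter site of Notch1 ran over chr2:26359358-26359904, with its middle 289 bp upstream of the start of the main transcript at 26359342. The annotated gene record begins farther upstream, so that this site lies 12552 bp inside it. The scores were 347, 133 and 177, at percentiles 93.4, 74.1 and 92.2. Within 300 bp it holds a SOX core on the minus strand at chr2:26359651-26359656, an octamer on the minus strand at chr2:26359688-26359695, a match to the SOX/POU word that overlaps the octamer, and GTGGGAA, the word read by RBPJ, at chr2:26359723-26359729. A further 7 regions around Notch1 had peaks in 1 or 2 replicates, of which the highest in rank, at chr2:26391192-26391416 and 19121 bp upstream of the gene start, had scores of 110 in replicate 1 and 81.2 in replicate 3, at percentiles 66.9 and 71.3, and no peak in replicate 2.

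Notch2 (ENSMUSG00000027878, chromosome 3 from 97817461 to 97954290, plus strand), a receptor of the same structure as Notch1 that is expressed in radial glia and many other tissues, had 1 site. It lay in intron 1 at chr3:97828204-97828657, with its middle 10969 bp from the gene start. The scores were 219, 230 and 387, at percentiles 86.7, 88.4 and 97.4, so this site ranked high in each list. In replicate 3, 3 more peaks followed within intron 1, at 12748, 12964 and 14479 bp from the start, and the highest of them had a score of 102, at percentile 81.9. A region in intron 4, 61387 bp from the start, had peaks in replicates 2 and 3, with scores of 58.2 and 70.7, at percentiles 22.4 and 61.3.

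Notch3 (ENSMUSG00000038146, chromosome 17 from 32257765 to 32303825, minus strand), known for its role in vascular smooth muscle and also expressed in progenitors, had 1 site in intron 1 at chr17:32302599-32302984. Its middle lay 1033 bp from the gene start, and the scores were 170, 87.6 and 129, at percentiles 81.3, 54.0 and 87.8. This site was below the Notch1 and Notch2 sites in the scores of every replicate. It was the richest in G and C of the 15 sites (70.3% of 300 bp) and held GACAAA and GACAAT on the minus strand, at chr17:32302767-32302772 and chr17:32302828-32302833. The other 9 regions around Notch3 had a peak in 1 or 2 replicates, and 5 of them had 15.8 to 89.5% of their 50-base sequences in more than 1 place of the reference. Among these was the highest in rank, 71199 bp downstream of the start, with scores of 59.6 in replicate 2 and 159 in replicate 3, at percentiles 25.3 and 90.9, and a share of 70.6%.

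The ligands ranged from the highest score of the 10 genes in replicate 1 to no site at all. Dll1 (ENSMUSG00000014773, chromosome 17 from 15504318 to 15513836, minus strand), the Delta-like ligand that newborn neurons present to their neighbours, had its main site upstream of the gene at chr17:15517410-15518009, 3873 bp from the start. The scores were 1128, 447 and 637, which rank 128 of 18816, 295 of 8096 and 504 of 40543 in the lists. This was the highest score of replicate 1 around the 10 genes, and its percentiles were 99.3, 96.4 and 98.8. The sequence shown above holds 3 SOX cores, of which one overlaps AACAAA at chr17:15517800-15517805 and another overlaps GACAAA on the minus strand at chr17:15517846-15517851, and it holds the E-box CAGCTG, a word read by proneural bHLH proteins, at chr17:15517683-15517688.

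Around this site, replicate 1 had more peaks than the other replicates. A region 5500 bp upstream of Dll1 had scores of 128 in replicate 1 and 162 in replicate 3, at percentiles 72.5 and 91.2. The 3 regions at 133, 2031 and 4792 bp upstream had a peak in replicate 1 alone, with scores of 144, 190 and 58.9, at percentiles 76.5, 83.8 and 27.2. The region at 133 bp covers the start of the gene record, so this start was called in 1 of the 3 replicates. The main transcript of Dll1 starts inside the gene record, at 15512940, and the distances given here are from the record. The second site of Dll1 lay downstream of the gene at chr17:15486043-15486358, 27635 bp from the start, with scores of 126, 195 and 302. Its percentiles were 72.0, 85.2 and 96.3. Their range was wider than at the upstream site, which lies near the top of the scale, where percentiles have little room to differ.

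Dll4 (ENSMUSG00000027314, chromosome 2 from 119151520 to 119161698, plus strand), a ligand best known from sprouting blood vessels, had 1 site 3179 bp upstream of its start at chr2:119148117-119148564. The scores were 206, 53.9 and 109, and the score of replicate 2 was at percentile 12.1, near the calling threshold, while the others were at percentiles 85.5 and 83.9. No SOX core was found in its 300 bp, of which 65.7% were G or C. The other region around Dll4, 25338 bp downstream of its start, had a peak in replicate 3 alone and was nearest to the start of Chac1.

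Jag1 (ENSMUSG00000027276, chromosome 2 from 136907192 to 136942380, minus strand), a Jagged ligand whose response can change when fringe proteins modify the receptor, had 3 sites inside its body. The site in exon 1, at chr2:136942070-136942386 and 152 bp from the start, scored 123, 71.2 and 55.3. The site in intron 5, at chr2:136924089-136924351 and 18160 bp from the start, had scores of 64.6, 105 and 170. The site in intron 9, at chr2:136918224-136918477 and 24029 bp from the start, had scores of 117, 53.4 and 75.5. The replicates ranked these sites differently. By percentile, replicate 1 had them at 71.0, 37.0 and 69.3, replicate 2 at 40.5, 63.4 and 10.3, and replicate 3 at 27, 91.7 and 66.6.

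Both intronic sites of Jag1 hold an octamer, at chr2:136924099-136924106 and, on the minus strand, at chr2:136918339-136918346. In intron 5 it is followed by GTGGGAA at chr2:136924112-136924118 and by AACAAA at chr2:136924209-136924214. In intron 9 it overlaps a match to the SOX/POU word, and GACAAA lies at chr2:136918372-136918377. The SOX core counted for the intron 9 site lies within its 300 bp window but outside the 254 bp of the site itself, so it is not in the sequence shown. A region of intron 5 with a peak of replicate 3 alone, 17040 bp from the start, had a score of 80.1, at percentile 70.5. With equal numbers of peaks taken from each list, Jag1 had no site, because replicate 1 or replicate 3 ranked each of them too low.

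Dll3 and Jag2 had peaks but no site. Dll3 (ENSMUSG00000003436, chromosome 7 from 29076673 to 29087257, minus strand), a divergent ligand known for its part in somite formation that acts within the cell rather than on its neighbour, had 10 regions, 3 with a peak of replicate 1 and 7 with a peak of replicate 3. The highest score of replicate 1 was 60.4, at percentile 30, and the highest of replicate 3 was 119, at percentile 85.9, in a region 49964 bp upstream and nearest to Rps16. That region had 27.5% of its 50-base sequences in more than 1 place of the reference. The single region inside Dll3, in intron 3, had a score of 75.9 in replicate 3, at percentile 67.0. Jag2 (ENSMUSG00000002799, chromosome 12 from 114146801 to 114167706, minus strand), the second Jagged ligand, had 3 regions, each with a peak of replicate 1 alone, and the highest of them, 20865 bp upstream and nearest to Nudt14, had a score of 151, at percentile 77.9. Neither gene had a peak of replicate 2 in its window.

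The fringe genes had sites both upstream and in their first introns. Lfng (ENSMUSG00000029570, chromosome 5 from 141083295 to 141091497, plus strand), the fringe that cycles in the presomitic mesoderm and is expressed in neural progenitors, had a site that was high in every list. It lay 23133 bp upstream of the start at chr5:141059839-141060485, with scores of 578, 449 and 799, which rank 511, 291 and 324 in the lists of replicates 1, 2 and 3. These were the highest scores of replicates 2 and 3 around the 10 genes. The lowest of its percentiles was 96.4, the same as at the Dll1 upstream site, and it was the only 1 of the 15 sites whose nearest protein-coding start belonged to another gene, Grifin, at 19137 bp. The sequence shown above holds GACAAT on the minus strand at chr5:141060136-141060141.

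The second site of Lfng, in intron 1 at chr5:141087022-141087552 and 3992 bp from the start, had scores of 494, 199 and 331, at percentiles 96.4, 85.8 and 96.7. Its 300 bp held 4 SOX cores, the most of the 15 sites, and 4 words GACAAA or GACAAT. The third site, in intron 2 at chr5:141087857-141088311, had a score of 436 in replicate 1, at percentile 95.6, but 54.6 and 67.8 in replicates 2 and 3, at percentiles 14.3 and 57.3. The first and second sites of Lfng were high in every replicate, and the third was high in replicate 1 only. Of the 4 regions in 1 replicate, the highest in score, 41969 bp downstream and nearest to Ttyh3, had 61.7 in replicate 3, at percentile 45.8.

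Mfng (ENSMUSG00000018169, chromosome 15 from 78586312 to 78603905, minus strand), a fringe of the same enzyme family, had a site 5276 bp upstream at chr15:78609009-78609353, with scores of 141, 95.6 and 199, at percentiles 75.7, 58.9 and 93.4. Its other site, in intron 1 at chr15:78601351-78601620 and 2419 bp from the start, had scores of 96.1, 57.5 and 126, at percentiles 61.1, 21.0 and 87.3. In each replicate the upstream site scored higher than the intronic site. AACAAA lies in the upstream site at chr15:78609172-78609177, and the intronic site held 3 SOX cores. A region between the upstream site and the gene start had a peak of replicate 1 alone, and 96.4% of its 50-base sequences occur in more than 1 place of the reference. Downstream of the gene, 20334 bp from the start, replicates 1 and 3 had peaks with scores of 89.8 and 65.0, at percentiles 58.1 and 52.7.

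**Figure D3:**
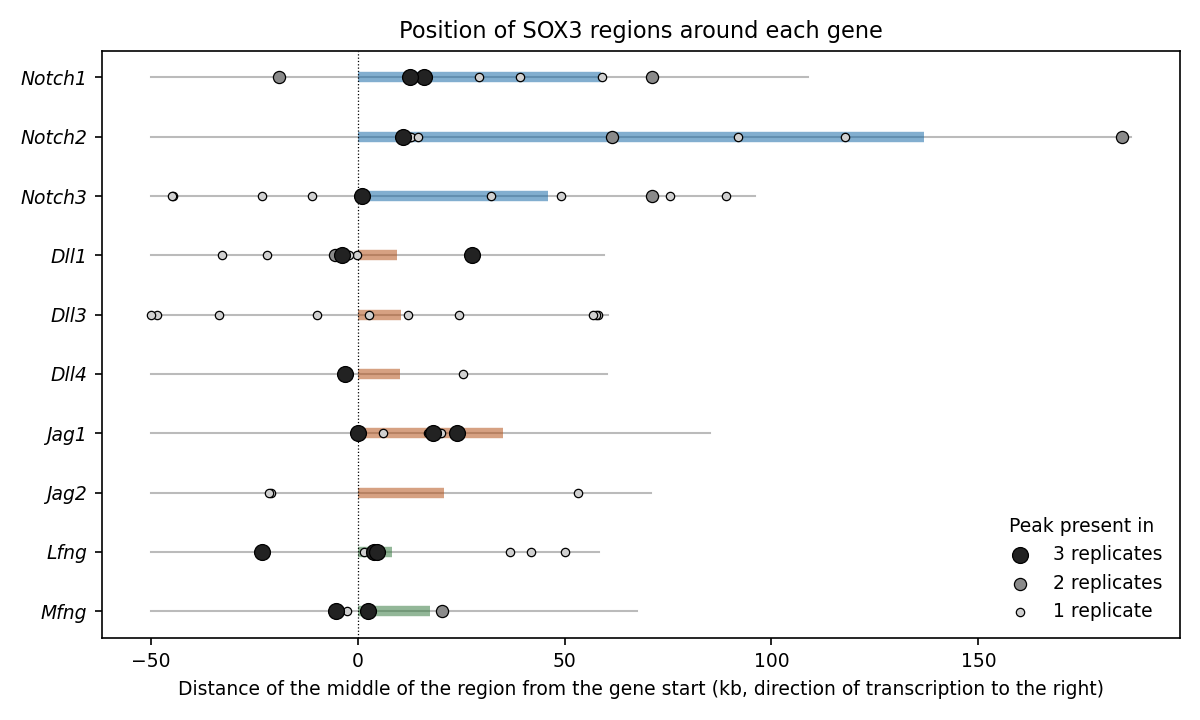
Distance of the middle of each SOX3 region from the gene start in kb (horizontal axis, direction of transcription to the right) for each gene (vertical axis). Coloured bars are gene bodies, grey lines the windows, and larger, darker points are regions with a peak in more replicates. Sites with a peak in every replicate lie from 27.6 kb downstream to 23.1 kb upstream of the gene start, and single-replicate regions are spread over the windows.

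The middles of the 15 sites lay 152 to 27635 bp from the gene start, with a median of 5276 bp, beside a median of 30613 bp over the 10303 pairs of a protein-coding gene and a site in its window. The gene start is that of the gene record. For Notch1 it puts the sites at 12552 and 15911 bp, although they lie 289 and 3070 bp from an annotated transcript start. The nearest protein-coding start was that of the gene itself for 14 of 15 sites, beside 38.5% of all such pairs, and for 4 of 7 regions with peaks in 2 replicates and 18 of 45 with a peak in 1 replicate. A site enters these pairs once for every gene window it falls in, and the genome holds 5358 sites, so shares of pairs are not shares of sites. Where genes are crowded, fewer pairs can be nearest. The windows of the 10 genes held from 0 (Jag1) to 6 (Dll3) other protein-coding starts. By their middle, 8 sites were in introns of the main transcript (16.5% of all pairs), 4 of them in the first intron (5.83%), 1 was in an exon (2.29%), 1 lay downstream of the gene and the others lay upstream of the main transcript. Sites within 2000 bp of an annotated protein-coding start were present for 3 of the 10 genes (Notch1, Notch3 and Jag1), against 4.53% of protein-coding genes. Widening the windows to 100 kb to each side added 1 site to the 15, and 14 sites lay within 20 kb of the gene bodies. None of the 50-base sequences within the 15 sites occurs elsewhere in the reference, whereas the share was above 50% in 1 of 7 regions with peaks in 2 replicates and 5 of 45 with a peak in 1 replicate.

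The scores of the 15 sites spanned much of each list, with medians near those of all sites in the genome. Their median percentile was 85.5 in replicate 1, 63.4 in replicate 2 and 92.2 in replicate 3, and over all 5358 sites it was 82.6, 65.1 and 92.8. Above the median of all sites were 8 of the 15 in replicate 1, 7 in replicate 2 and 7 in replicate 3. Receptor sites had median percentiles of 90.0, 80.9 and 94.6 in replicates 1, 2 and 3, ligand sites 71.5, 51.9 and 87.8, and fringe sites 95.6, 58.9 and 93.4. The range within each class was wide, from percentile 37.0 to 99.3 for ligand sites in replicate 1 and from percentile 14.3 to 96.4 for fringe sites in replicate 2, and the classes overlapped in every replicate. Replicate 2, the shortest list, gave the lowest percentile of the 3 at 11 of the 15 sites.

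**Figure D4:**
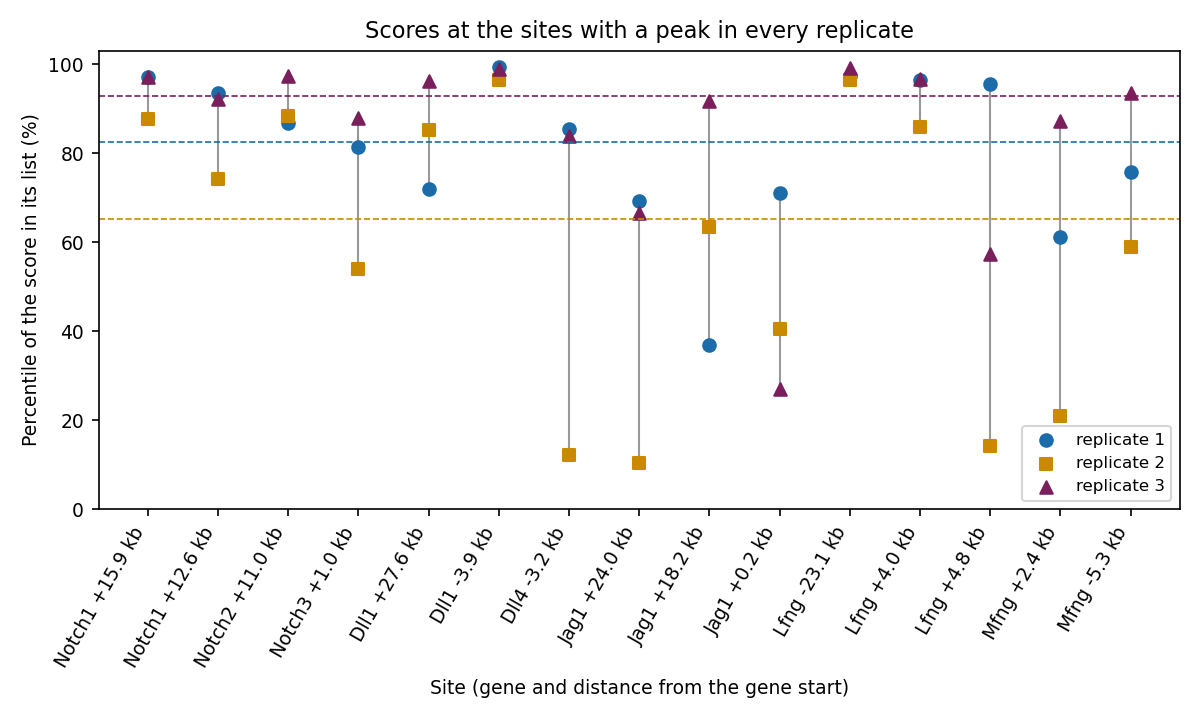
Percentile of the score within its list (vertical axis, in percent) for each of the 15 sites (horizontal axis, gene and distance of the middle from the gene start), with circles for replicate 1, squares for replicate 2 and triangles for replicate 3. Dashed lines are the medians of all 5358 sites in each list (82.6, 65.1 and 92.8). The upstream sites of Dll1 and Lfng lie at percentile 96.4 or higher in every replicate, and the sites of Dll4, Jag1 intron 9, Lfng intron 2 and Mfng intron 1 lie between percentiles 10.3 and 21.0 in replicate 2 and at 57.3 or higher in the others.

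Words were counted on both strands in a window of 300 bp per site. Of the 15 sites, 11 held the SOX core, which is 73.3% with a 95% Wilson interval of 48.0 to 89.1%, beside 78.6% of all sites and 61.7% of windows 2000 bp to each side of all sites. The sites without it were those of Notch2, Dll4, Jag1 exon 1 and Lfng intron 2. Either AACAAA or AACAAT occurred in 6 sites (40%, interval 19.8 to 64.3%) beside 56.2% of all sites. For GACAAA and GACAAT the count was 7 (46.7%, interval 24.8 to 69.9%) beside 41.6% of all sites. In the 30 flanking windows of the 15 sites themselves, 56.7% held the SOX core, 36.7% the form with AACAA, 23.3% the form with GACAA, 13.3% the E-box, 3.33% the RBPJ word, and 0 the octamer or the SOX/POU word, which allows a share of up to 11.4% by the Wilson interval. The interval of the SOX core at the 15 sites includes both flanking shares, so the core was not separated from flanking sequence at this number. The AACAA and GACAA forms overlap the core in part, and their shares around the 10 genes could not be told from those of all sites at this number.

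The octamer occurred at 3 sites (20%, interval 7.05 to 45.2%), namely the promoter site of Notch1 and the intronic sites of Jag1, beside 10.3% of all sites and 3.11% of their flanking windows. Its interval overlaps the limit of 11.4% for the flanking windows of the 15 sites themselves, 2 of the 3 sites are in Jag1, and with a p-value of 1e-10 the count was 1 of 7 sites. The SOX/POU word, which shares letters with the octamer and leaves several positions before them open, was matched at 2 sites (13.3%, interval 3.74 to 37.9%) beside 6.85% of all sites. The matches were ATTGAAATGCAAA at the Notch1 promoter site and TTTCAGATGCAAA at the Jag1 intron 9 site, and in neither does the part before the POU letters hold ACAA, the start of the SOX core, or its reverse complement TTGT. Over all sites, 29.2% of 373 matches hold either of them there. GTGGGAA occurred at 2 sites with the same share and interval, the promoter site of Notch1 and the intron 5 site of Jag1, beside 6.77% of all sites. The E-box CAGCTG occurred at 4 sites (26.7%, interval 10.9 to 52.0%) beside 21.0% of all sites. Each interval includes the share of all sites. The G and C content of the 15 windows ranged from 41.7 to 70.3%, with a median of 54.0%, against 49.3% for all sites. A word match describes the sequence and is not a measured binding position.

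**Figure D5:**
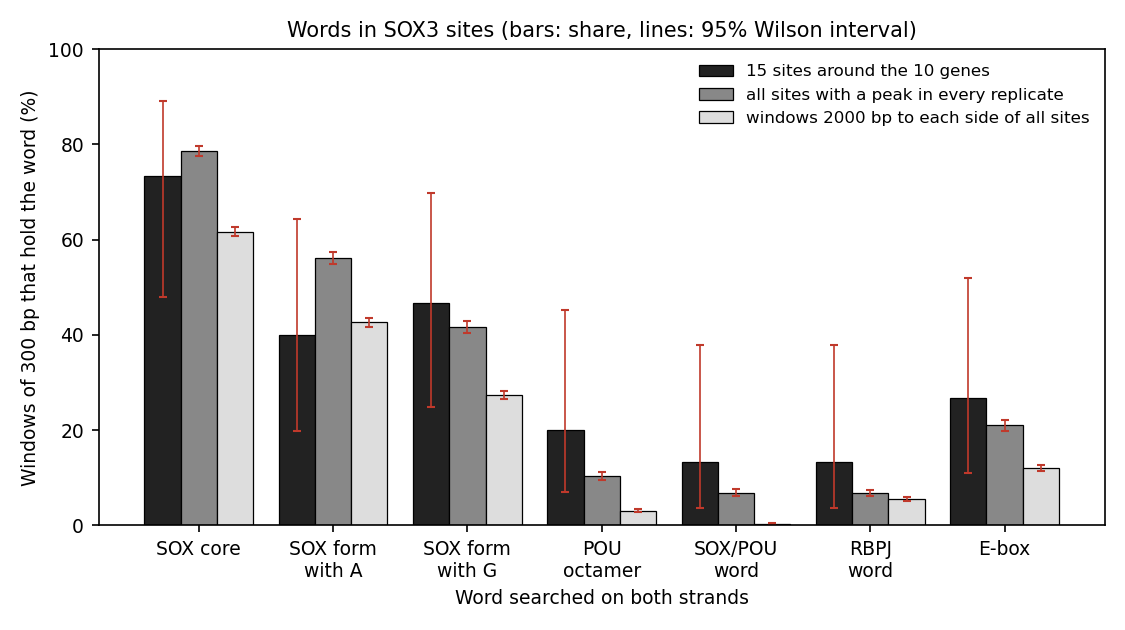
Share of 300 bp windows in percent (vertical axis) that hold each word (horizontal axis) in the 15 sites, in all sites with a peak in every replicate and in windows 2000 bp to each side of all sites. Lines are 95% Wilson intervals, and those of the 15 sites include the share of all sites for every word.

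The other 52 regions around the 10 genes had a peak in fewer replicates. Replicate 1 alone had 21, replicate 3 alone had 24, replicate 2 alone had none, replicates 1 and 3 shared 5 and replicates 2 and 3 shared 2. Regions of replicate 1 alone had a median percentile of 27.2, with a range from 1.33 to 83.8, and regions of replicate 3 alone had a median of 45.3, with a range from 1.17 to 85.9. The highest of replicate 1 alone was the region 2031 bp upstream of Dll1. Around the 10 genes, 22.4% of regions had a peak in every replicate, against 10.5% of all regions in the genome, and 35.8% were of replicate 3 alone, against 58.7%.

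Of 34 other genes of the pathway, 16 (47.1%) had at least 1 site in the gene body plus 50 kb, against 28.8% of all protein-coding genes, with 26 sites in all and a density of 0.448 per 100 kb. The pathway gene was the nearest for 14 of these sites, beside 38.5% of all pairs of gene and site, and 10 of the 34 genes were nearest to a site, beside 13.6% of protein-coding genes. Sites were found around 3 of 3 corepressors, 2 of 4 genes of the nuclear complex and 2 of 6 of gamma-secretase, the protease that releases the intracellular part of the receptor. They were also found around 2 of 4 genes that mark the ligand with ubiquitin, 4 of 8 regulators of the receptor, 2 of 3 noncanonical ligands, and Rfng. Neither of the 2 proteases of the outer cleavage, neither of the 2 glycosylation genes and not the receptor Notch4 had a site.

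Dtx4, an E3 ligase of the Deltex family, had 3 sites, all in its body and at 8032, 12418 and 13649 bp from its start, with percentiles from 42.8 to 92.5. Maml2, a coactivator that binds the receptor and RBPJ, also had 3, at 61819, 70637 and 79587 bp from its start, of which the second and the third were nearest to the start of Mtmr2, and the last of them reached percentiles 92.7, 91.1 and 98.1. Ncstn, a subunit of gamma-secretase, had 3 sites in its window, but each was nearest to Vangl2. Rbpj, the DNA-binding partner of the receptor, had a site 3673 bp upstream with scores of 124, 99.4 and 142, at percentiles 71.6, 60.9 and 89.3, and another 115921 bp from its start, nearest to Cckar.

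Spen, a corepressor that binds RBPJ, had a site 26993 bp upstream with scores of 1302, 430 and 759, at percentiles 99.5, 96.0 and 99.1, and a weaker one at 8255 bp. Kdm5a, a histone demethylase, had 2 sites in its window, both nearest to other genes. The Spen upstream site was the only 1 of the 26 that scored above the Dll1 upstream site in replicate 1 and in replicate 3.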

How the data were processed

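SOX3 ChIP-seq of 3 replicates of NP cells was used as the lists of peaks deposited by the authors. Per the labels and the study's methods, 50 bp single-end reads were aligned to mm9 with Bowtie (1.0.0 in the submitters' processing notes) and MACS, with the input as control, was run on each replicate at a p-value threshold of 1e-05. The version of MACS is not given in the sources used here. The deposited score, set by the authors, is not normalized between replicates. Depth is unknown, and the input was not analysed here.

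Starts were converted to count from 1. Genes, transcripts and sequences came from GENCODE vM1 on the NCBIM37 reference, which is the assembly of mm9, and no peak ran past the end of its chromosome there. Peaks overlapping by at least 1 bp were merged. A site counted for a gene when it overlapped the gene body plus 50 kb. The main transcript is the protein-coding one with the most exonic bases. The percentile of a score is its mid-rank in its list. Where a region held several peaks of 1 replicate, the highest score was used. Words were searched on both strands, with no mismatch to the letters each position allows, in 300 bp around the middle of a site. The SOX/POU word joins a loose SOX-like part, with open positions, to most of the octamer. Each 50-base sequence of a region was counted in the reference on both strands. Intervals are 95% Wilson intervals and cover counting error only. No statistical test was made, as the series has 1 group.

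The genes, lists, rules and words were chosen with earlier results of these data known. All 10 genes are named, with all their sites and the highest in rank of their other regions, as are the other pathway genes with the most sites, of which 1 is not reported here. Further regions of Notch2, Dll1, Dll3 and Mfng and the genes Rfng and Notch4 were named after their values were seen. The 34 other pathway genes all matched by symbol. The alternatives tried were a stricter p-value of 1e-10, the 8096 best peaks of each list, a reciprocal overlap of 50%, midpoints within 300 bp, stretches covered by every replicate, other windows, nearest genes, other word windows, and each replicate left out. The merging, counting and word search were tested on simulated data. Scripts ran in Python 3.11.15 (matplotlib 3.10.9, pysam 0.24.0, numba 0.67.0, scipy 1.17.1, numpy 2.4.6).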

Additional observations from a re-analysis of the deposited data

How the results depend on the processing

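Of 102 values under alternatives, 87 stayed within 1.5 times the reported count, or within the interval of the reported share, and 15 did not. When each peak had to reach a p-value of 1e-10, 4 of the 10 genes had a site, 7 sites remained (2 of fringes and 2 of ligands), and 8 other pathway genes and 15.2% of protein-coding genes had a site. With the gene body alone, 3 fringe sites, 3 ligand sites and 6 other pathway genes were counted and the share of protein-coding genes was 8.83%. With the body plus 20 kb that share was 18.5%. When a site counted only for its nearest gene, 10 other pathway genes and 13.6% of protein-coding genes had one. Equal numbers of peaks (8096 per list) left 3 ligand sites. Each of these alternatives uses fewer peaks, shorter windows or 1 gene per site. Without 1 replicate, receptor sites numbered 4 to 7, the highest without replicate 2, and the number of the 10 genes with a site was 8 in each case. The share of protein-coding genes with a site rose from 28.8% to 37.3% without replicate 1, 39.4% without replicate 2 and 29.4% without replicate 3. No paired analysis was possible because the replicates form 1 group. Scores near 50 lie at the calling threshold, so presence in 2 replicates does not show absence in the third.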
